A study of Mus musculus with 10 samples.

Results

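Suz12 sites with a CpG-poor center close to a gene start were taken from the list of 8876 Suz12 sites of mouse ESCs. A site was included when the 500 bp around its center held fewer than 3 CpG per 100 bp of the mm9 sequence and its center lay within 10000 bp of a transcript start of GENCODE vM1. Of the 8876 Suz12 sites, 625 met both conditions and are called CpG-poor sites below. The other sites near a start, 7057 in number, were CpG-rich, and beyond 10 kb from any start 152 sites were CpG-poor and 1042 CpG-rich. Within this list the choice used the center position, the sequence and the annotation. Strength, Pcl3 and depletion calls were not used, but earlier results of these data were known.

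The site lists came from 10 libraries, 6 of ChIP and 4 of input DNA. Suz12-TAP (FlagM2 antibody) and H3K27me3 were each mapped once in cells with scramble control shRNA and once in cells with Pcl3 shRNA. These cells were of the gene trap ESC line XG122 with the genotype Suz12Suz12TAP/+, in which 1 endogenous Suz12 allele carries a tandem affinity tag. Pcl3-TAP was mapped with FlagM2 in 2 populations of E14 ESCs, which carried Pcl3 shRNA6 or Pcl3 shRNA7 against the wild-type transcript, and the authors deposited 1 site list for both. All these cells carried an shRNA, the controls included, and Pcl3 was thus mapped in another ESC line than Suz12. The Suz12 list describes scramble cells. Sites with less Suz12, or with less H3K27me3, in the Pcl3 shRNA cells form the Suz12-depleted list (5722 sites) and the H3K27me3-depleted list (678 sites), and the Pcl3 list holds 5242 sites. The lists hold no expression values, so the ESC label was not checked against marker genes, and they hold 1 p-value a site and no reads, so the depth behind a site is unknown. No group has a replicate list. The intervals below are 95% Wilson intervals over sites, which share libraries and often lie close together, and they do not cover the variation between cultures. No test between classes of sites was run.

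Suz12 is a core subunit of PRC2, the complex that methylates lysine 27 of histone H3, and Pcl3 is one of the Polycomb-like proteins, accessory PRC2 subunits with a Tudor domain and PHD fingers. In mammalian cells PRC2 is found mainly at CpG islands, stretches of DNA that keep many CpG dinucleotides and often overlap gene starts. In ESCs many of these islands belong to genes for developmental transcription factors and signals that are silent until differentiation.

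The 625 CpG-poor sites fell into a few arrangements, a grouping that was made after the values were seen. In 248 of them the center was CpG-poor but some other 500 bp window inside the site (moved in steps of 50 bp) reached 3 CpG per 100 bp. The other 377 sites were CpG-poor throughout, and 355 of these had another Suz12 center within 10 kb. Only 22 were CpG-poor throughout and isolated, which here means that no other Suz12 center lay within 10 kb. Of the 248 sites with a CpG-rich window, 191 had such a neighbour and 57 were isolated. A wider site holds more windows, so the split also follows width.

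The first arrangement is shown by the strongest isolated CpG-poor sites that meet the conditions for printing sequence. The 300 bp at the center of a site are given, followed by the most CpG-dense 300 bp of the same site outside annotated UTRs. All are plus strand sequences of mm9, and capitals mark each CpG. Lhx4 encodes a LIM homeobox factor of pituitary and motor neuron development, and its site (chr1:157582601-157590900) was 8300 bp wide. Its center, in an intron, held 0 CpG in 300 bp, and the dense stretch, outside any annotated transcript, held 36. Bahd1 encodes a chromatin protein with a BAH domain. Its site (chr2:118721201-118729600) was 8400 bp wide, with 6 CpG at the intergenic center and 51 in the dense stretch, which lies in a transcript outside coding exons.
Lhx4 center, chr1:157586601-157586900: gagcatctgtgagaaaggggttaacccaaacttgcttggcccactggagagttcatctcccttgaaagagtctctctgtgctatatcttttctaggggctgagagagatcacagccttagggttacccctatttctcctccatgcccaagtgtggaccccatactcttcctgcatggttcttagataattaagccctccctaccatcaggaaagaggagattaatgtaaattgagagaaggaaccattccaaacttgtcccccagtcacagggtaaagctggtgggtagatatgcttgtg
Lhx4 dense stretch, chr1:157589951-157590250: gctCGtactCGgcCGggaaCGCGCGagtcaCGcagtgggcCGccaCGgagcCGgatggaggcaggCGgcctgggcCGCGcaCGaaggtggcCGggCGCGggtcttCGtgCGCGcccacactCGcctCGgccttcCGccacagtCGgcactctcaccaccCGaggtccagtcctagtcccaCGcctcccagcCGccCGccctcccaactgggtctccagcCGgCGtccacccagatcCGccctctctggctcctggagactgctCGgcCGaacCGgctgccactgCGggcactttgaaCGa
Bahd1 center, chr2:118725251-118725550: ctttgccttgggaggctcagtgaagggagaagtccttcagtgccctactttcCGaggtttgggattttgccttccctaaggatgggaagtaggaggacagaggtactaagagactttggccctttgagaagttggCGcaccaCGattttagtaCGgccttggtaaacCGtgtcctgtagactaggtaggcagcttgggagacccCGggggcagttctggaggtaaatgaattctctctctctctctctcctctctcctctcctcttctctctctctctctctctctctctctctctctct
Bahd1 dense stretch, chr2:118727601-118727900: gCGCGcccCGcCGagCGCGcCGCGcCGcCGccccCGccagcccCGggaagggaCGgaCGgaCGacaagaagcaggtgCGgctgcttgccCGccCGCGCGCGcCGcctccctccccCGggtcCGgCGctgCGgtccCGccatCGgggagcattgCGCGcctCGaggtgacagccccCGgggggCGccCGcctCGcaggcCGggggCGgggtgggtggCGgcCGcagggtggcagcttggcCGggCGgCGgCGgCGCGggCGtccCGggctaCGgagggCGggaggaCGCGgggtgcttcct

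The second arrangement, a CpG-poor site beside another Suz12 site, is shown by the site with the fewest CpG of all 625. It lay 2970 bp upstream of Hoxb9, a homeobox gene of trunk patterning, in intergenic DNA (chr11:96129251-96130350), and the 500 bp around its center held 0 CpG per 100 bp. Its nearest Suz12 neighbour was centered 2950 bp away at 8.4 CpG per 100 bp, and the stretch of that neighbour shown here lies in the Hoxb9 coding exon with 39 CpG in 300 bp. The third arrangement, isolated and CpG-poor throughout, is shown by the strongest such site nearest to a protein-coding gene, in an intron of Col16a1 (chr4:129764451-129765150), a fibril-associated collagen gene, with 5 CpG in 300 bp.
Hoxb9 center, chr11:96129651-96129950: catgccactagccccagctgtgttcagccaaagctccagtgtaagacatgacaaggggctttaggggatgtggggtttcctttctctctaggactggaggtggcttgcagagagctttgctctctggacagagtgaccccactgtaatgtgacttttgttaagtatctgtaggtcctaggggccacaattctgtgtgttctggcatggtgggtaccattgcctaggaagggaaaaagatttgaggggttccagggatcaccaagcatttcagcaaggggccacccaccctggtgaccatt
Hoxb9 neighbour, chr11:96132951-96133250: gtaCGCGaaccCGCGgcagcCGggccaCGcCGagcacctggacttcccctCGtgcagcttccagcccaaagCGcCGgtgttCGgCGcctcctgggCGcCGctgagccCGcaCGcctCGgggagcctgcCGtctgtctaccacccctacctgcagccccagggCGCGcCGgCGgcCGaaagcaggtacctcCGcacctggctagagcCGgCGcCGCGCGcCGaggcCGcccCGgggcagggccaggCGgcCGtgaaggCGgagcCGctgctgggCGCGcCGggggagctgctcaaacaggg
Col16a1 center, chr4:129764651-129764950: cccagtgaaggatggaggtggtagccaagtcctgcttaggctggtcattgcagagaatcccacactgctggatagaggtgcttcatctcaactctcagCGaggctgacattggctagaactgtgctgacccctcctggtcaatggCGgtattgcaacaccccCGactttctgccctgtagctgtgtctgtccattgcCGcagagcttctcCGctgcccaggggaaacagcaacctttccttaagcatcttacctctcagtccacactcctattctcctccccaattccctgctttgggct

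The CpG values around the center describe the classes and are largely fixed by how these were defined, since the central 500 bp were chosen for few CpG. Averaged over sites, CpG-rich sites near genes peaked at the center with a mean of 8.31 CpG per 100 bp. The 248 CpG-poor sites with a CpG-rich window had a mean of 2.27 at the center and a largest mean of 3.75 at 500 bp. In the 62 CpG-poor sites of 4 kb or more, all of this kind, the mean was 1.73 at the center and 6.10 at 1500 bp. The 355 neighboured sites that were CpG-poor throughout had their largest mean, 3.17, at 1500 bp from the center. At the 22 isolated sites that were CpG-poor throughout, the largest mean was 2.32, near the center. A 500 bp window with at least 3 CpG per 100 bp lay within 2 kb of the center at 267 of the 355 neighboured sites and at 9 of the 22 isolated ones, and 101 of all 377 had none.

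**Figure D1:**
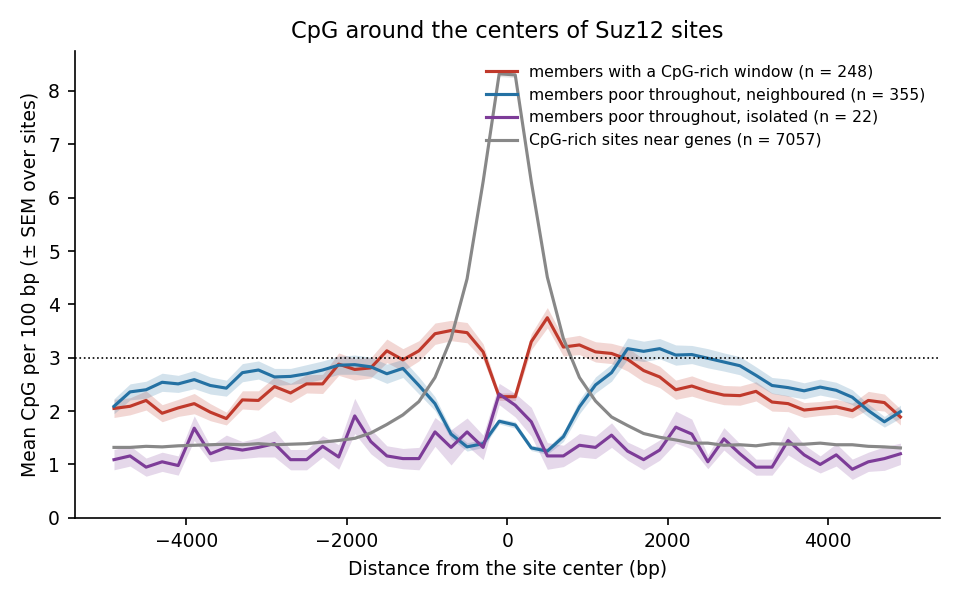
Mean CpG per 100 bp in 200 bp bins (y axis) against the distance from the Suz12 site center in bp (x axis), with shading for the standard error over sites and a dotted line at 3 CpG per 100 bp. CpG-rich sites near genes peak at 8.31 at the center, CpG-poor sites with a CpG-rich window lie at 2.27 there and neighboured sites that are CpG-poor throughout reach 3.17 at 1500 bp. The central values follow from the choice of the classes.

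The median GC content of the 500 bp was 53% at the CpG-poor sites and 65.2% at CpG-rich sites near genes, and the median ratio of observed to expected CpG was 0.303 against 0.741, a difference that the choice by CpG itself sets. GCGCGC, a palindrome searched on this strand alone because it reads the same on the other, occurred at 26 of 625 CpG-poor sites (4.16%, 2.85% to 6.03%), at 42.5% of the CpG-rich sites near genes and at 37.5% of all Suz12 sites. Since each match holds CpG, this follows in part from the choice. Motifs without CpG were more frequent at the CpG-poor sites than at CpG-rich sites near genes. GAGAGAGA or its complement TCTCTCTC lay in 74 of the 625 windows (11.8%) against 5.14% of the CpG-rich sites near genes, CACACACA or TGTGTGTG also in 74 (11.8%) against 5.57%, and TATAAA or TTTATA in 73 (11.7%) against 4.36%. The TC run closes the Bahd1 center shown above, and GAGAGAGA lies in the Lhx4 center. Over all Suz12 sites these shares were 5.7%, 6.29% and 5.19%, and at CpG-poor sites far from genes 9.87%, 11.8% and 7.89%. Given the lower GC content of the CpG-poor windows, the part of base composition in these shares was not tested.

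The strength of a site, taken as −log10 of its binding p-value in scramble cells, was low at most CpG-poor sites. Their median was 12.5 (quartiles 8.72 and 52.8), against 30.1 (13.7 and 82.5) at CpG-rich sites near genes, 26.2 over all Suz12 sites and 9.73 at CpG-poor sites far from genes. Yet the CpG-poor sites also reached the top of the scale. The p-value of 52 of the 625 was too small for the number format and written as 0 (8.32%, 6.4% to 10.7%), which was also the case at 5.26% of the CpG-rich sites near genes. These sites were placed at the largest finite strength, 307. Of 10 equal strength classes of all Suz12 sites, numbered from the weakest, the 3 lowest (strength up to 14) held 348 CpG-poor sites, deciles 4 to 6 (14 to 38.7) held 107, and deciles 7 to 10 held 170. For weak Suz12 sites missing from earlier maps, the authors propose either weak binding or an artifact of raised Suz12 in this line. Whether this concerns the weak CpG-poor sites was not tested.

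Strength and width separated the arrangements. Sites with a CpG-rich window had a median strength of 80.0 (quartiles 20.0 and 234) and a median width of 2200 bp. Sites that were CpG-poor throughout had a median strength of 9.63 (7.97 and 12.9) and a median width of 600 bp, and none of them had a p-value written as 0. Within each kind a neighbour made little difference to strength, with medians of 75.5 and 81.9 at isolated and neighboured sites with a CpG-rich window and 8.88 and 9.68 at isolated and neighboured sites without one. By width, 416 of the CpG-poor sites were at most 1000 bp wide (median strength 9.68), 147 were between that and 4000 bp (69.4), and 62 were 4000 bp or wider. Of these 62, 48 had a p-value written as 0.

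**Figure D2:**
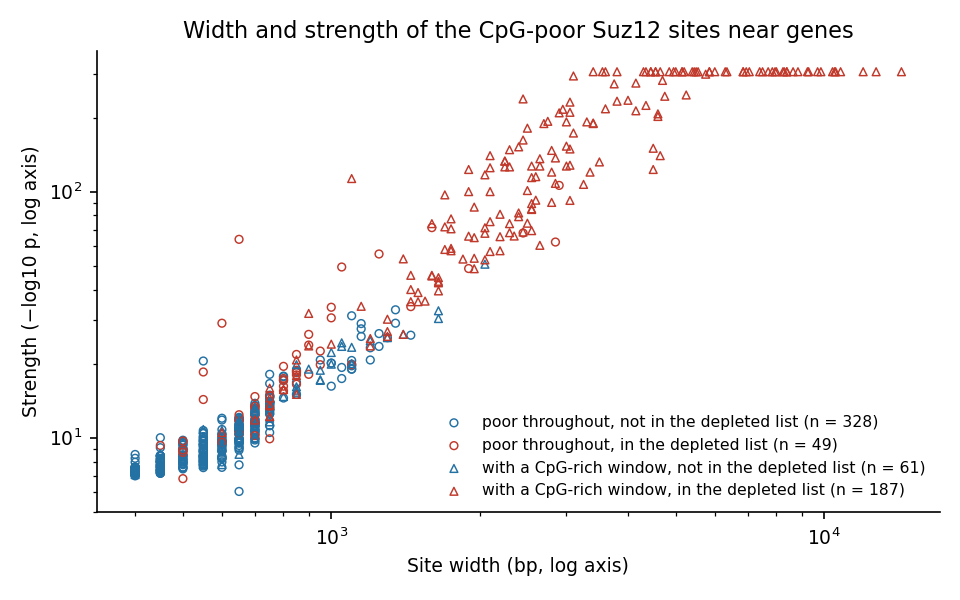
Strength (−log10 p, y axis) against width in bp (x axis) of the 625 CpG-poor Suz12 sites near genes, both on log axes. Triangles hold a CpG-rich window, circles are CpG-poor throughout, and red marks the 236 sites in the Suz12-depleted list. Circles gather below 1000 bp and a strength of 20, triangles extend to the largest strength of 307, and red points take over as strength increases.

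The 52 CpG-poor sites with a p-value written as 0 were between 3400 bp and 14350 bp wide, with a median of 6850 bp. All 52 were in the Suz12-depleted list and 43 had a Pcl3 center within 2 kb (82.7%, 70.3% to 90.6%). Over all Suz12 sites these shares were 64.5% and 44.9%. Both were also high at strong CpG-rich sites near genes (given below). Their order within the tie is not known, so the 10 widest are described here, and their width is part of the choice. These 10 had a neighbour between 5225 bp and 8950 bp away. The widest (chr5:35728801-35743150, 14350 bp) was centered in an intron of Hmx1, a homeobox gene of sensory neurons and eye, with 0.6 CpG per 100 bp at the center and 14.4 in its densest window. The site at Otx1 (chr11:21892501-21905250), a homeobox gene of forebrain patterning, rose from 1.0 to 13.8 CpG per 100 bp, and that at Hoxc9 (chr15:102805251-102815800) from 0.2 to 13.0. In an intron of Shh, the Hedgehog ligand, a site of 9850 bp (chr5:28784101-28793950) had 1.2 CpG per 100 bp at its center, and its nearest transcript start was that of the noncoding gene Gm17493. The others were nearest to Cbx8, which encodes a subunit of the Polycomb complex PRC1, to the homeobox genes Hoxb5 and Lmx1b, to Olig2, a bHLH factor of motor neuron and oligodendrocyte precursors, to Pax9, a paired box factor of tooth and palate development, and to Gm5607. Among the isolated sites the widest 5 of those at the largest strength lay at Islr2, Bahd1, Lhx4, Wnt7b (a Wnt ligand) and Isl2 (a LIM homeobox factor of motor neurons), with widths from 7850 bp to 9250 bp. Each of these 5 was in the Suz12-depleted list and had a Pcl3 center within 2 kb.

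Most CpG-poor sites stood beside another Suz12 site. Another Suz12 center lay within 10 kb of 546 of the 625 (87.4%, 84.5% to 89.7%), against 36.2% (2558 of 7057) of the CpG-rich sites near genes and 39.4% of all Suz12 sites. At CpG-poor sites far from genes the share was 49.3%. The median distance to the nearest other center was 2200 bp (quartiles 1425 bp and 4275 bp), whereas at CpG-rich sites near genes it was 32650 bp. The interval from 1 to 2 kb alone held 220 of the 625 (35.2%), and 283 had a neighbour within 2 kb. The authors called sites by joining 400 bp windows, so such neighbours are separate runs of windows.

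**Figure D3:**
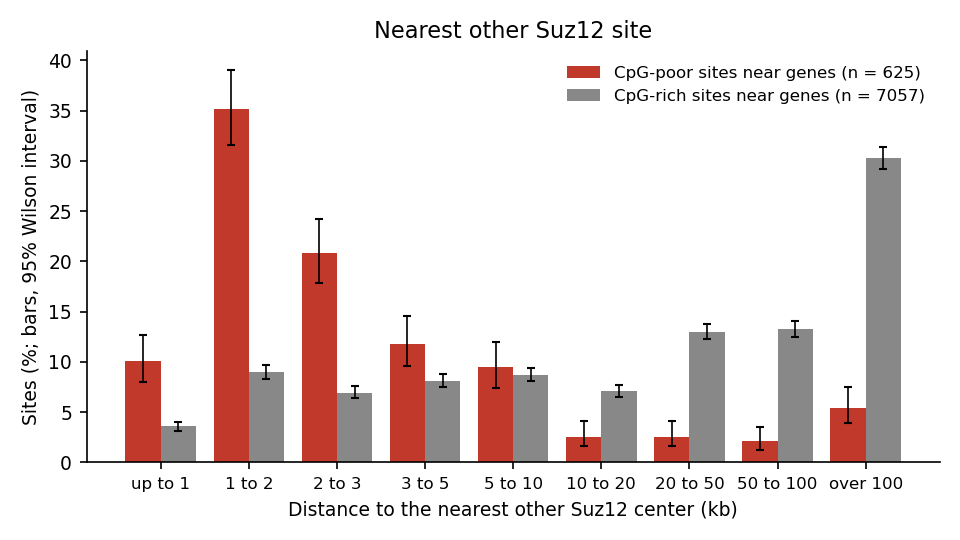
Percent of CpG-poor (red, n = 625) and CpG-rich (grey, n = 7057) Suz12 sites near genes by the distance in kb to the nearest other Suz12 center, with 95% Wilson intervals as bars. The CpG-poor sites are concentrated at 1 to 2 kb (35.2%), and the CpG-rich sites have their largest share beyond 100 kb (30.3%).

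The neighbour was usually the stronger of the pair. Among the 546 neighboured CpG-poor sites, the neighbour held 3 CpG per 100 bp or more at its center in 357 cases (65.4%, 61.3% to 69.3%), a lower share than the 82% (80.4% to 83.4%) at neighboured CpG-rich sites near genes and the 79% at all neighboured Suz12 sites. It was the stronger site in 371 cases (67.9%). For the 355 that were CpG-poor throughout, the neighbour was stronger in 289 cases (81.4%, 77% to 85.1%). Its median strength was 46.5, and that of these sites 9.68. At neighboured sites with a CpG-rich window the neighbour was stronger in 42.9%, a share like the 42.3% at neighboured CpG-rich sites near genes. A stronger nearest site was not particular to neighboured sites. At the 22 isolated sites that were CpG-poor throughout, the nearest Suz12 site, over 10 kb away, was stronger in 19 cases (86.4%, 66.7% to 95.3%). At CpG-poor sites far from genes, whatever the distance, it was stronger in 77% (69.7% to 83%).

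CpG-poor sites lay away from the transcript start itself. Their median distance to the nearest start was 2016 bp (quartiles 926 bp and 3909 bp), against 300 bp (119 bp and 866 bp) at CpG-rich sites near genes, and 312 (49.9%, 46% to 53.8%) were within 2 kb, against 83.6%. Their centers were spread nearly evenly over either side, with 343 (54.9%) downstream of the start. At CpG-rich sites 70.5% were downstream. Introns held 309 of the 625 centers (49.4%, 45.5% to 53.4%), intergenic DNA 207 (33.1%), coding exons 50 (8%), UTRs 40 (6.4%) and noncoding exons 19 (3.04%). For CpG-rich sites near genes these shares were 31.8%, 16.5%, 26.8%, 21.5% and 3.47%. The start nearest to a CpG-poor site was itself CpG-rich in 433 cases (69.3%, 65.6% to 72.8%), with a median of 5.2 CpG per 100 bp, and at 87.7% of the CpG-rich sites. Of the 22 isolated sites that were CpG-poor throughout, 4 had a CpG-rich start. In 469 of the 625 cases the nearest gene was also the nearest gene of a CpG-rich Suz12 site.

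**Figure D4:**
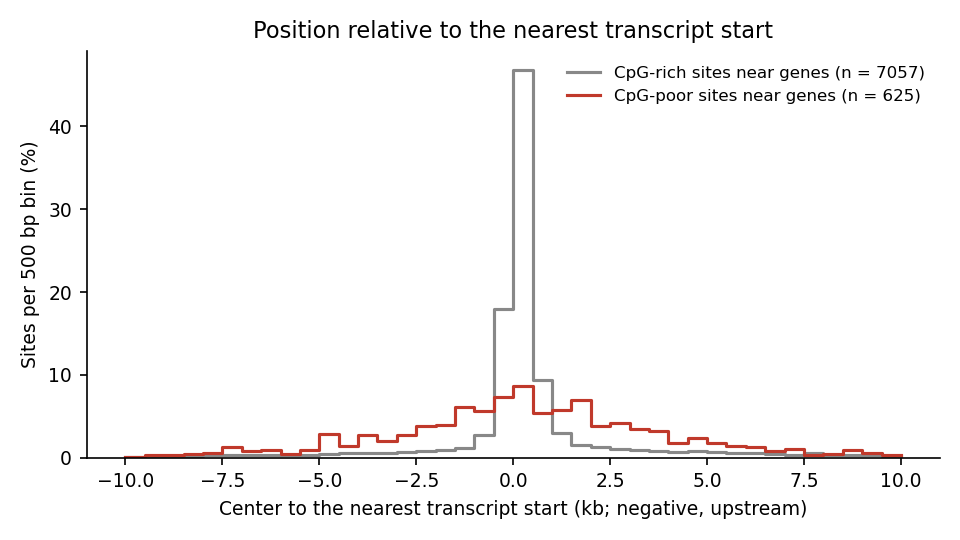
Percent of CpG-poor (red, n = 625) and CpG-rich (grey, n = 7057) Suz12 sites near genes per 500 bp bin (y axis) by the distance in kb from the site center to the nearest transcript start (x axis, negative values upstream). The CpG-rich sites form a narrow peak just downstream of the start, and the highest bin of the CpG-poor sites, 0 to 500 bp downstream, holds 8.64%.

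The 2 conditions of the rule cut through continuous values. At 2.8 CpG per 100 bp, just inside, 87 sites near genes had a median strength of 14.1, and at 3 CpG per 100 bp, just outside, 93 sites had one of 41. Six2, Cbx8 and Wnt10b were the strongest sites just inside and Nkx2-3, Prdm12 and Pcdh10 the strongest just outside, all with a p-value written as 0. By distance, sites just inside lay 9915 bp from Rps6ka4 and 9762 bp from Tlx3, with strengths of 126 and 21.8. The first outside lay 10017 bp from Tac4, 10077 bp from Ngfr and 10217 bp from Psap, with strengths of 14.5, 9.29 and 9.47.

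How often Pcl3 accompanied CpG-poor sites depended on how near it had to be. A Pcl3 center lay within 2 kb of 368 of the 625 CpG-poor sites (58.9%, 55% to 62.7%), read against 44.9% of all Suz12 sites. At CpG-rich sites near genes the share was 44.8% (3165 of 7057), and at CpG-poor sites far from genes 34.9%. Pcl3 sites sharing at least 1 base were found at 365 CpG-poor sites (58.4%), against 44.4% of the CpG-rich sites near genes and 44.3% of all. Within 500 bp the order was the reverse, with 29.3% (25.8% to 33%) of the CpG-poor and 36.9% (35.8% to 38%) of the CpG-rich sites near genes, and within 1 kb the shares were 37.4% (33.7% to 41.3%) and 41.5% (40.3% to 42.6%). Within 5 kb they were 78.7% and 48.8%. The 368 sites were matched to 336 different Pcl3 sites, whose centers lay at a median of 525 bp, against 175 bp for CpG-rich sites near genes.

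Set beside CpG-rich sites of like strength, CpG-poor sites as a whole had Pcl3 more often at each distance tried. If the CpG-rich sites near genes had the strength deciles of the CpG-poor sites, their Pcl3 share within 2 kb would be 32.8%, within 500 bp 25.3% and within 1 kb 29.2%. In deciles 1 to 3, Pcl3 lay within 2 kb of 190 of 348 CpG-poor sites (54.6%, 49.3% to 59.8%) and of 213 of 1816 CpG-rich sites (11.7%, 10.3% to 13.3%). In deciles 4 to 6 the shares were 46.7% and 25.9%, and in deciles 7 to 10 they were 75.3% (68.3% to 81.2%) and 77.9% (76.4% to 79.3%), with overlapping intervals. In deciles 1 to 3 the shares within 500 bp were 22.4% (18.3% to 27.1%) and 7.27% (6.16% to 8.56%), and by shared bases 41.7% and 7.87%. Pcl3 sites matched to weak CpG-poor sites were themselves stronger and wider (median strength 19.7 and width 1000 bp) than those matched to weak CpG-rich sites (11.6 and 650 bp), and their centers lay farther off, with median distances of 950 bp and 250 bp.

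The high share was carried by neighboured sites. Among weak sites (deciles 1 to 3), 188 of the 316 neighboured CpG-poor sites had Pcl3 within 2 kb (59.5%, 54% to 64.8%), and 2 of the 32 isolated ones (6.25%, 1.73% to 20.1%). The corresponding CpG-rich shares were 17.8% (15.1% to 20.9%) with a neighbour and 8.33% (6.87% to 10.1%) without. Over all strengths, isolated CpG-poor sites had Pcl3 in 44.3% (33.9% to 55.3%), and isolated CpG-rich sites weighted to the same deciles in 45.6%. Neighboured CpG-poor sites had it in 61% and neighboured CpG-rich sites, so weighted, in 35.1%. Of the 35 isolated CpG-poor sites with Pcl3, 33 held a CpG-rich window.

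The strength of the neighbour was then set alongside. Where a weak site had a strong neighbour (deciles 7 to 10) within 2 kb, Pcl3 lay within 2 kb of 63 of 91 CpG-poor sites (69.2%, 59.1% to 77.8%) and of 38 of 50 CpG-rich sites (76%, 62.6% to 85.7%). By shared bases, however, these shares were 40.7% (31.1% to 50.9%) and 16% (8.34% to 28.5%). Where site and neighbour within 10 kb were both weak, Pcl3 lay within 2 kb of 56 of 86 CpG-poor sites (65.1%, 54.6% to 74.3%) and of 22 of 271 CpG-rich sites (8.12%, 5.42% to 12%). A pair of CpG-poor sites that are neighbours of each other enters at each of its sites.

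A Pcl3 site near a pair of Suz12 sites is counted for both. Of the 368 CpG-poor sites with a Pcl3 center within 2 kb, 246 were the nearest Suz12 site of that Pcl3 site (66.8%, 61.9% to 71.5%), and 122 had another Suz12 site nearer to it. At CpG-rich sites near genes the share was 95.4%. When each Pcl3 site was counted only for its nearest Suz12 site, a count added after the values were seen, 39.4% (35.6% to 43.2%) of the CpG-poor and 42.8% (41.6% to 43.9%) of the CpG-rich sites near genes had Pcl3, against 41.6% of all Suz12 sites. Weighted to the deciles of the CpG-poor sites, the CpG-rich share by this count was 30.3%. Of the 330 neighboured CpG-poor sites that shared bases with a Pcl3 site, 152 shared it with their neighbour.

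Calls of Suz12 depletion were less frequent at the CpG-poor sites. In the Pcl3 shRNA cells 236 of the 625 were in the Suz12-depleted list (37.8%, 34% to 41.6%), read against 64.5% of all Suz12 sites. At CpG-rich sites near genes the share was 68% (4801 of 7057), and at CpG-poor sites far from genes 34.9%. The depleted list repeats the binding p-value of each site, so the size of a loss was not given. The authors also report lower Suz12 mRNA and protein in Pcl3 knockdown cells. Depletion calls followed strength closely. Both rest on the same single Suz12 library of scramble cells, and its part in this relation was not tested. The authors allow that a loss may be harder to detect at weak peaks. Absence from the list therefore does not show that Suz12 was kept. In deciles 1 to 3, 23 of 348 CpG-poor sites were depleted (6.61%, 4.44% to 9.72%) and 13.6% (12.1% to 15.3%) of the CpG-rich sites near genes. In deciles 4 to 6 it was 44 of 107 (41.1%, 32.3% to 50.6%) against 69.6% (67.6% to 71.5%), and in deciles 7 to 10 169 of 170 (99.4%) against 99.2%. With the CpG-rich sites weighted to the deciles of the CpG-poor sites, their share was 44.5%.

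Depletion thus divided the arrangements as strength did. Of the 248 sites with a CpG-rich window, 187 were depleted (75.4%, 69.7% to 80.3%), and of the 377 without one, 49 (13%, 9.97% to 16.8%). All 62 sites of 4 kb or more were depleted. Among the strongest CpG-poor sites outside the list were those at Tacr1, the substance P receptor gene (strength 50.7, in its UTR), upstream of the homeobox gene Six3 in an intron of Six3os1 (33.1), at Kcnj11, a potassium channel gene (32.8, in its UTR), and upstream of Gm1337 (31.3). Those at Tacr1 and Kcnj11 were isolated, with the nearest Pcl3 centers 478750 bp and 266675 bp away. Those at Six3 and Gm1337 had neighbours at 2050 bp and 1325 bp.

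**Figure D5:**
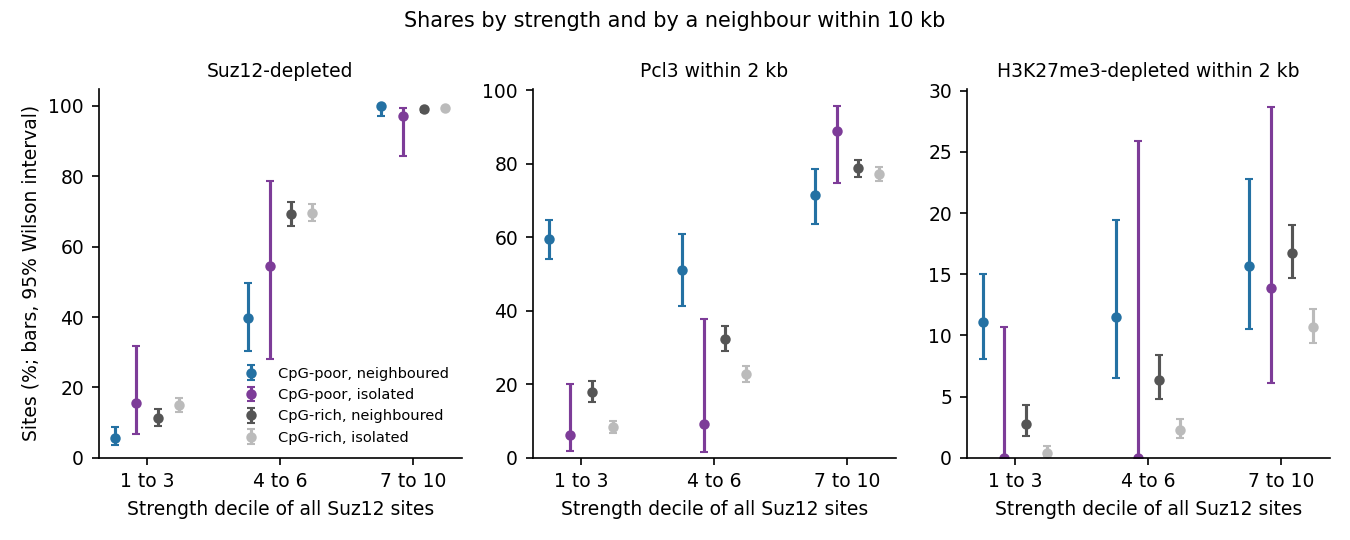
Percent of Suz12 sites near genes (y axes, with 95% Wilson intervals) in the Suz12-depleted list (left), with a Pcl3 center within 2 kb (middle) and with an H3K27me3-depleted center within 2 kb (right), by strength decile of all Suz12 sites (x axes), for CpG-poor and CpG-rich sites with or without another Suz12 center within 10 kb. In deciles 1 to 3, 59.5% of the neighboured CpG-poor sites have Pcl3 against 6.25% of the isolated ones, while 5.7% and 15.6% of them are depleted.

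A Suz12-depleted center, of the site itself or of another, lay within 2 kb of 393 of the 625 (62.9%, 59% to 66.6%), read against 68.3% of all Suz12 sites and 70.3% of the CpG-rich sites near genes. With the CpG-rich sites weighted to the strength deciles of the CpG-poor sites, the order was the reverse, and their share was 48.7%. Among the 546 neighboured sites, 356 were not depleted, and at 250 of these the neighbour was (70.2%, 65.3% to 74.7%). Of neighboured sites outside the depleted list, the same was true of 52% (48.6% to 55.5%) of the CpG-rich ones near genes and of 57.3% of all. Over all neighboured sites the median strength of the neighbour was 49.0 at CpG-poor and 20.7 at CpG-rich sites near genes. Of the 546 CpG-poor sites, 132 were depleted together with their neighbour, 58 alone, and at 106 neither was. CpG-poor sites that are neighbours of each other are each counted.

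Decreased H3K27me3 was called near few sites of either class. An H3K27me3-depleted center lay within 2 kb of 72 of the 625 CpG-poor sites (11.5%, 9.25% to 14.3%), read against 7.37% of all Suz12 sites and 7.11% of the CpG-rich sites near genes. The 72 sites were matched to 63 different H3K27me3-depleted sites. In deciles 1 to 3 the shares were 35 of 348 (10.1%, 7.32% to 13.7%) and 1.27% (0.845% to 1.89%), and in deciles 7 to 10 they were 15.3% (10.7% to 21.5%) and 13% (11.9% to 14.3%). Over all strengths the difference depended on how a site was matched. Within 1 kb the shares were 5.12% (3.65% to 7.14%) at CpG-poor and 6.01% (5.48% to 6.59%) at CpG-rich sites near genes, and within 500 bp 3.2% and 4.19%. By shared bases 48 CpG-poor sites (7.68%) had decreased H3K27me3, against 6.94% of the CpG-rich sites near genes and 6.89% of all. In 33 of the 72 cases another Suz12 site lay nearer to the H3K27me3-depleted center, and counted for the nearest Suz12 site only the shares were 6.24% (4.6% to 8.42%) and 6.66% (6.1% to 7.27%). None of the 22 isolated sites that were CpG-poor throughout had such a center, which allows a share of up to 14.9% (upper Wilson bound).

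Calls of decreased H3K27me3 were frequent on chromosome 11 in CpG-poor and CpG-rich sites near genes alike. It held 102 of the 625 CpG-poor sites (16.3%), which were 11.1% of its own Suz12 sites. Of these 102, 28 had decreased H3K27me3 within 2 kb (27.5%, 19.7% to 36.8%), and of the 523 on other chromosomes 44 (8.41%, 6.33% to 11.1%). At CpG-rich sites near genes the shares were 19.6% (16.9% to 22.7%) and 5.68% (5.14% to 6.28%), and over all Suz12 sites 19.5% and 5.96%. For Pcl3 the shares were 58.8% and 58.9%, and for the depleted list 38.2% and 37.7%. The strongest CpG-poor sites with decreased H3K27me3 were at Olig2, Islr2, Gp1bb, Hand1 (a bHLH factor of heart and placenta) and Rfx4, with deposited p-values between 7.07e-17 and 8.25e-08 for the H3K27me3 decrease. All 5 had a p-value for Suz12 binding written as 0 and a Pcl3 center within 2 kb.

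Genes of developmental regulators made up a larger part of the CpG-poor than of the CpG-rich sites near genes. Homeobox transcription factor genes were nearest to 121 of the 625 (19.4%, 16.5% to 22.6%, of 76 genes), against 3.83% (3.4% to 4.3%) of the CpG-rich sites. Of these 121 sites, 63 were depleted (52.1%), 77 had Pcl3 within 2 kb (63.6%) and 8 had decreased H3K27me3 within 2 kb (6.61%), against 64.5%, 44.9% and 7.37% of all Suz12 sites. At CpG-rich sites of the same list these shares were 91.5%, 74.4% and 13.3%. The strength of the 121 sites ran from 7.08 to 307 with a median of 26.3. Other developmental transcription factors, such as Olig2, Hand1 and Prdm13, were nearest to 60 sites (9.6%, 7.53% to 12.2%), against 4.27%, and 47 of the 60 had Pcl3 (78.3%, 66.4% to 86.9%), as had 70.4% (65% to 75.3%) of the CpG-rich sites of that list. Secreted signals and their antagonists, such as Wnt7b, Fgf9 and Gdf7, were nearest to 33 (5.28%, 3.78% to 7.32%), against 2.47%. For ion channels and neurotransmitter receptors (18 sites, 2.88%), led by the potassium channel gene Kcnc2, the dopamine receptor gene Drd4 and the calcium channel gene Cacnb3, and for cadherins and other adhesion molecules (9 sites, 1.44%), led by Flrt2, Esam and Pcdhgc5, the shares of CpG-rich sites, 2.82% and 1.67%, lay inside the intervals (1.83% to 4.51% and 0.759% to 2.71%). Pluripotency genes were nearest to 2 sites, at Tbx3 and Prdm14, with strengths of 8.06 and 7.27, neither of them depleted. No olfactory or vomeronasal receptor gene was nearest to any of the 625, a share of up to 0.611%.

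Several of these genes were nearest to more than 1 CpG-poor site. The 625 sites had 472 different nearest genes, and 34 genes were nearest to 3 or more. Hoxb3 was nearest to 6, all CpG-poor throughout, Gsx2 and Lbx1, homeobox genes of forebrain and of muscle and spinal cord precursors, to 5 each, and Dlx6os1 to 4. In the 4 Hox clusters together, a set chosen after the values were seen, 39 CpG-poor sites stood among 52 CpG-rich sites, each CpG-poor one with a neighbour within 10 kb. The 39 ranged in strength from 7.37 to 307 (median 20.1), and the 52 CpG-rich sites were far stronger (median 259). Of the 39, 18 were depleted, against all 52 CpG-rich sites and 64.5% of all Suz12 sites. These Hox shares were not set at like strength. Pcl3 centers lay within 2 kb of 11 of the 39 sites and of 28 of the 52 CpG-rich sites, while all 39 and all 52 shared bases with a Pcl3 site. Over all Suz12 sites these shares were 44.9% within 2 kb and 44.3% by shared bases. At Hoxb3, 0 of 6 sites had a center within 2 kb and 6 of 6 shared bases. The same was true of the 5 sites named as the strongest without a Pcl3 center within 2 kb. These lay in the Hmx1 intron and nearest to Hoxb5, Hoxc9, Lmx1b and Pax2, and 5 of 5 shared bases with a Pcl3 site.

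A further group lay in DNA at the edge of the assembled chromosomes. Sfi1, a centrosomal protein gene near the assembly start of chromosome 11, was nearest to 13 CpG-poor sites between chr11:3032951-3033450 and chr11:3079851-3080350, more than any other gene. All 13 were CpG-poor throughout (median 1.0 CpG per 100 bp at the center), with strengths from 6.05 to 67.9 (median 9.57). All 13 had Pcl3 within 2 kb, 6 were depleted and 4 had decreased H3K27me3, against 44.9%, 64.5% and 7.37% of all Suz12 sites. On chromosome 9, 11 CpG-poor sites lay within 37900 bp of the first assembled base, at predicted genes such as Gm10717 and Gm11168, and at these sites 58.3% to 93.8% of the 30-base words (1 every 10 bp) of the 500 bp recurred within 50 kb on either strand. Within 200 kb of the first assembled base there were 27 CpG-poor sites, all CpG-poor throughout, and 5 CpG-rich sites near genes. Of the 27, 12 were depleted, 18 had Pcl3 and 9 had decreased H3K27me3, against 64.5%, 44.9% and 7.37% of all Suz12 sites. At least 10% of such words recurred at 18 of the 625 CpG-poor sites (2.88%, 1.83% to 4.51%) and at 0.638% of the CpG-rich sites near genes. None of the 13 Sfi1 sites was among them, the largest share there being 2.08%. Reads were kept only if they aligned uniquely, and the part of repeated sequence in these calls was not tested. Without the 27 sites the shares of the remaining 598 were 37.5% for depletion, 58.5% for Pcl3 and 10.5% for decreased H3K27me3.

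The 22 isolated sites that were CpG-poor throughout were the only ones with neither a CpG-rich window nor a Suz12 neighbour. They were narrow (median 575 bp) and weak (strength quartiles 7.66 and 10.7, median 8.88). Depletion was recorded at 5 (22.7%, 10.1% to 43.4%) and Pcl3 within 2 kb at 2 (9.09%, 2.53% to 27.8%). Over all Suz12 sites these shares were 64.5% and 44.9%. At the 355 neighboured sites that were CpG-poor throughout they were 12.4% (9.36% to 16.2%) and 58.3% (53.1% to 63.3%), so that the intervals overlap for depletion and not for Pcl3. Weak isolated CpG-rich sites near genes had Pcl3 in 8.33% (6.87% to 10.1%), so a low Pcl3 share was not particular to CpG-poor sites. The 2 strongest of the 22, at 29.2 and 18.5, lay in annotated copies of ribosomal RNA (n-R5-8s1 and 5_8S_rRNA). Both were depleted, and the n-R5-8s1 site had a Pcl3 center 25 bp away. These calls are among the 5 and the 2 given above. By the count of recurring words used above, the 5_8S_rRNA site had the largest share of the 22, 10.4%. The next was the Col16a1 site shown above (13.1, depleted, with the nearest Pcl3 center 12950 bp away). After it came a site in an intron of BC034090 (11.7, depleted) and another in an intron of Garnl3 (11, not depleted).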

How the data were processed

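ChIP and input DNA were sequenced by the authors as single-end 30-nt reads and aligned to mm9. Bowtie is named in the submitters' processing notes, and its version is not given in the sources used here. Unique reads were kept, the background was equalized, 400 bp windows were tested with a Skellam distribution at a stated cutoff of 1e-07, and passing windows were joined. The weakest listed Suz12 site has a −log10 p of 6.05. The deposited unit is 1 p-value a site, for Suz12, Pcl3, Suz12-depleted and H3K27me3-depleted sites. Library depth was not analysed here, and no read counts were used, so counting precision of a site is unknown.

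CpG and GC were counted in the 500 bp around each center from the mm9 sequence, and starts and features were taken from GENCODE vM1. Centers within 2 kb were matched. Strength is −log10 of the p-value; 435 Suz12 p-values written as 0 were placed at 307. Shares carry 95% Wilson intervals. With 1 list a condition, no test between conditions or site classes was possible. CpG-rich shares were weighted to the strength deciles of the CpG-poor sites. Sites were named by rule: the 10 strongest; the 5 strongest isolated, without Pcl3, outside the depleted list and with H3K27me3 loss; the 3 with fewest CpG; the 3 on either side of each threshold; and the 3 strongest of each gene list. Sites named besides these were chosen after their values were seen. The members and gene lists were chosen with earlier results of these data known. The distance search was tested on simulated data, where 0 of 300 sites differed from a search of all pairs. Computation used pandas 2.3.3 and numpy 2.4.6, intervals scipy 1.17.1 and plots matplotlib 3.10.9, all under Python 3.11.15. Alternatives varied the matching distance, the CpG and distance thresholds, the p-value and the sites left out. Results for some sites that these rules select are not reported here.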

Additional observations from a re-analysis of the deposited data

How the results depend on the processing

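Of 54 alternatives, 29 left a value inside its 95% interval and 25 moved it outside, and 12 of the 54 were added after the data were seen. The Pcl3 share of 58.9% became 29.3% within 500 bp, 37.4% within 1 kb and 78.7% within 5 kb, and the H3K27me3 share of 11.5% became 3.2%, 5.12% and 22.6%, or 7.68% by 1 shared base. Counting each Pcl3 or H3K27me3-depleted site for its nearest Suz12 site only, an added alternative, gave 39.4% and 6.24%. The comparison of CpG-rich shares at other distances was also added after the data were seen, and within 500 bp and 1 kb, and by the nearest-site count, the CpG-poor share was the lower one. Under 2 CpG per 100 bp gave 62.7% with Pcl3, 29.5% depleted, a strength of 11.2, 93.3% neighboured and 2311 bp to the start. CpG counted over the whole site gave 91.2% neighboured and 2450 bp, and a limit of 2000 bp from the start 80.4% neighboured. Without neighboured sites, 58.2% were depleted, 44.3% had Pcl3, 6.33% had H3K27me3 loss and the strength was 25.5. At p of at most 1e-10, 58% were depleted and 6.33% had H3K27me3 loss. A Suz12-depleted center within 2 kb was found for 62.9%, and without chromosome 11 the H3K27me3 share was 8.41%. No paired analysis was possible because each condition has 1 site list with no replicate columns. Leaving out either Pcl3-TAP library could not be run, since both share 1 list.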

Other observations

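The gene with the nearest start was protein-coding for 523 of the 625 CpG-poor sites, a lincRNA gene for 47 (7.52%, against 4.37% of all Suz12 sites) and a microRNA gene for 14 (2.24%, against 1.79%). The sites nearest to microRNA genes were chosen for naming after their values were seen. Mir10b, which lies in the Hoxd cluster, was nearest to 2 sites that were CpG-poor throughout, with strengths of 25.8 and 9, both with a Pcl3 center within 2 kb and neither depleted. Mir375, known from pancreatic islets, was nearest to 2 such sites, with strengths of 13.9 and 12, 1 of them with Pcl3. Of the sites nearest to Mir26b (19.6), Mir137 (15.7) and Mir129-2 (11.8), that at Mir137 was depleted and that at Mir129-2 had Pcl3. The strongest of the 14 sites, nearest to the microRNA gene AC110909.1 (181), held a CpG-rich window, was depleted and had a Pcl3 center within 2 kb. Over all Suz12 sites 64.5% were depleted and 44.9% had a Pcl3 center within 2 kb.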
